A study of Schizosaccharomyces pombe with 8 samples.

Results

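Described here are 8 genes of the fission yeast Schizosaccharomyces pombe whose transcripts rise with hydrogen peroxide (H2O2), of 5165 genes in the deposited table. They are ddr48 (SPAC23H3.15c), lsd90 (SPBC16E9.16c), SPBC24C6.09c, SPAC3G6.07, ssd2 (SPAC139.05), ish1 (SPBC365.12c), rds1 (SPAC343.12) and uvi15 (SPBC649.04). The genes were chosen by their change with H2O2 in these same libraries, as very large inductions, or as well-known stress genes, so their H2O2 responses are given as a description with no test. Poly(A) RNA was sequenced in 8 libraries, 2 in each of 4 groups. The groups were a strain deleted for pgr1 treated with 1 mM H2O2 for 30 min, wild type (strain 972) treated in the same way, the untreated pgr1 deletion strain and untreated wild type. All cells grew in the rich medium YE5S at 30 °C to an OD600 of 0.5. The labels name 1 deletion strain and do not say whether the libraries of a group are separate cultures. The p-values therefore rest on the spread between these libraries alone, and that spread may be technical. Tests of the 8 genes between strains use wild-type libraries that also entered the choice of genes. A low level in untreated wild type favours both a large induction and a large untreated difference, so these p-values are not independent of the choice.

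Fission yeast meets peroxide with the mitogen-activated protein kinase Sty1, which acts through the transcription factors Atf1 and Pcr1 on a shared set of genes called the core environmental stress response, and with the factor Pap1, which controls antioxidant genes at low peroxide. The gene pgr1 encodes glutathione reductase, the enzyme that uses NADPH to reduce oxidised glutathione. Several of the 8 genes, ish1 and uvi15 among them, have long served as examples of stress-induced or stationary-phase transcripts in this yeast.

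The pgr1 transcript itself had 92.9 and 105.0 normalized counts in treated pgr1 libraries, 7201.1 and 6792.4 in treated wild type, 159.1 and 91.4 in untreated pgr1 libraries and 4939.4 and 4805.1 in untreated wild type. Every library therefore matched its genotype label. Recovered reads ranged from 12026222 to 14125543 per library. Levels are the authors' DESeq2-normalized counts. A log2 value is the limma estimate ± SE on log2(normalized count + 1), which understates the change of genes with few reads.

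The sequences before the genes differ, and 4 stretches are shown because they hold the motifs that the genes' upstream regions do or do not share. Sequence came from RefSeq, assembly ASM294v3, in the direction of transcription. The upper 3 hold the motif of the factors Atf1 and Pcr1, searched as TGACGT on both strands and present here as its reverse complement in capitals. The lowest is the last 60 bases before the start of ddr48, with a run in capitals that holds overlapping matches to TATAAA on both strands. Genes SPAC3G6.07 and rds1 lie on the plus strand of chromosome I, ddr48 on the minus strand of chromosome I and ish1 on the minus strand of chromosome II.
SPAC3G6.07: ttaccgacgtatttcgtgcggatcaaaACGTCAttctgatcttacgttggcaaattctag
ish1: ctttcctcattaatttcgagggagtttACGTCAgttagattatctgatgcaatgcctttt
rds1: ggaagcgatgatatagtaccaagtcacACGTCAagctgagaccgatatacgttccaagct
ddr48: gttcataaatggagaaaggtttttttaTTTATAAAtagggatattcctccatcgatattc

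The motif of Atf1 and Pcr1 began 90 bases before the annotated start of SPAC3G6.07, 75 bases before that of ish1 and 104 bases before that of rds1. It was present in 3 of the 8 windows of 250 bases before to 50 bases after the start, and in 5.98% of the 5130 promoters searched. The heat shock element GAANNTTC was found before uvi15 alone, against 11.2% of all promoters. Neither the Pap1 site TTACGTAA nor the Rst2 site CCCCTC was found in the 8 windows, against 0.468% and 2.11% of all promoters. TATAAA, searched like the others on both strands, was found in the windows of ddr48, SPBC24C6.09c, ssd2 and uvi15. This is a count of 4 of 8, against 48.2% of all promoters. In ssd2 the only match is the reverse complement, TTTATA. A match is a run of letters, not a shown binding site. The annotation gives no 5′ untranslated region for lsd90, SPBC24C6.09c and uvi15, so their windows are counted from the coding start.

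**Figure D1:**
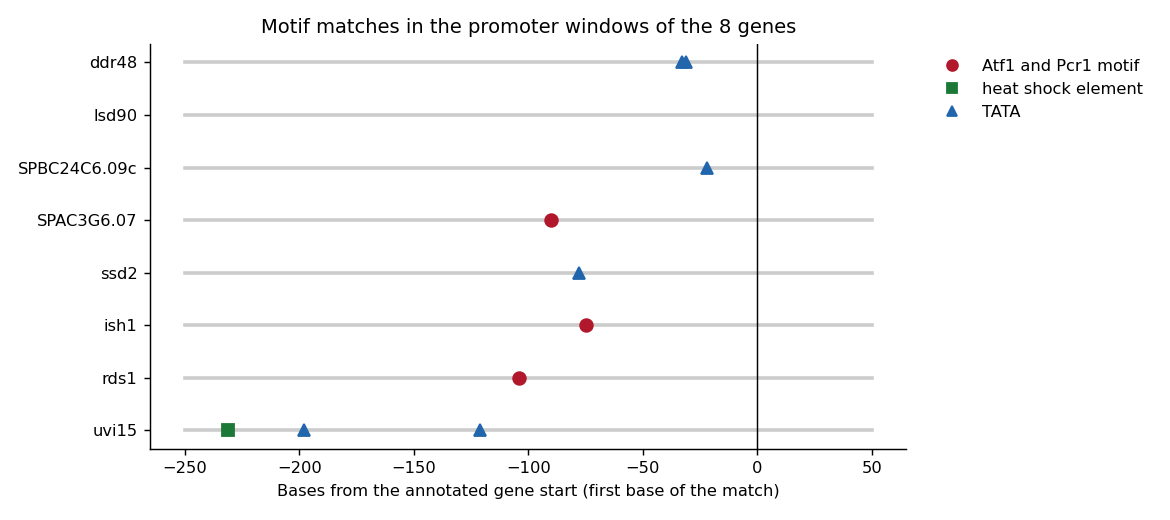
Matches to the Atf1 and Pcr1 motif (circles), the heat shock element (square) and TATAAA (triangles) in the promoter window of each of the 8 genes, by distance in bases of the match's first base from the annotated gene start. Matches on either strand are marked. The Atf1 and Pcr1 motif appears before SPAC3G6.07, ish1 and rds1, and lsd90 has none of the 3 motifs.

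The most induced gene of the whole table was ddr48, named after a budding yeast gene that answers DNA damage. Its normalized counts were 73790.2 and 78148.0 in treated pgr1 libraries and 85148.5 and 103327.8 in treated wild type. Untreated pgr1 libraries held 6878.8 and 8990.4, and untreated wild type held 131.3 and 170.5. The 4 groups formed 4 separate levels with no overlap, lowest in untreated wild type and highest in treated wild type. By group means the transcript was 625-fold higher after H2O2 in wild type and 9.57-fold higher after H2O2 in the mutant. As a log2 change this was 9.28 in wild type, the highest of the 5028 genes tested, and 3.27 in the mutant, the 27th highest.

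In untreated cells ddr48 was 5.71 ± 0.16 higher in the mutant than in wild type on the log2 scale (limma, Benjamini-Hochberg adjusted p = 4.26e-08). It was the 4th largest difference in that direction among the 5028 genes. After H2O2 the difference was -0.30 ± 0.16 and missed the threshold (Benjamini-Hochberg adjusted p = 0.145, limma), with a 95% interval from -0.67 to 0.06. It passed in 2 of the 17 alternatives, after quantile normalization, as -0.53, and with the replicate number as a block. The untreated mutant held 8.42% of the level of treated wild type. All exon bases of ddr48 lie opposite another annotated gene, 6.29% of them opposite a gene of the table, and the strand setting of the counting is not given in the sources used here. That gene, SPAC23H3.14, had 970.6 and 994.9 normalized counts in treated pgr1 libraries and 685.7 and 592.1 in treated wild type, both lower than the 1299.0 and 1337.0 of untreated pgr1 libraries and the 1230.9 and 1161.4 of untreated wild type.

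The gene lsd90, which RefSeq describes only as protein Lsd90, followed the same order of groups. Treated pgr1 libraries held 25431.2 and 21718.3 normalized counts and treated wild type 35143.0 and 41454.8. Counts of 3048.4 and 3549.2 were found in untreated pgr1 libraries and of 88.4 and 118.5 in untreated wild type. None of the 4 groups overlapped. The change with H2O2 was 370-fold by group means in wild type, log2 8.53 and 3rd of all genes, and 7.15-fold in the mutant, log2 2.84.

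Without H2O2, lsd90 was 4.99 ± 0.15 higher in the mutant (limma, Benjamini-Hochberg adjusted p = 5.48e-08). With H2O2 it was the 1 gene of the 8 that was called lower in the mutant than in wild type, with a log2 difference of -0.70 ± 0.15, while 5 others had negative estimates that missed the threshold (limma, Benjamini-Hochberg adjusted p = 0.00452). This call held in all 17 alternative settings and left-out libraries, with values between -0.82 and -0.58. No annotated gene lies opposite its exons.

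A pair of the genes encode metabolic enzymes. SPBC24C6.09c encodes a phosphoketolase family protein, a class of enzymes that cleave sugar phosphates of the pentose phosphate pathway. Its normalized counts were 13727.1 and 14046.0 in treated pgr1 libraries and 17457.0 and 21052.4 in treated wild type, then 738.9 and 678.2 in untreated pgr1 libraries and 56.9 and 35.6 in untreated wild type. Again the groups did not overlap, and treated wild type was highest. The change with H2O2 was 417-fold in wild type (log2 8.70, 2nd of all genes) and 19.6-fold in the mutant (log2 4.29, the largest of the 8 in that strain and 8th of all genes). The untreated mutant stood 3.95 ± 0.18 above untreated wild type (limma, Benjamini-Hochberg adjusted p = 5.82e-07). That left it at 3.68% of the level of treated wild type, the lowest such share among the 8 genes.

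After H2O2, SPBC24C6.09c was at -0.47 ± 0.18 in the mutant against wild type and missed the threshold (Benjamini-Hochberg adjusted p = 0.0637, limma), with a 95% interval from -0.88 to -0.05. The difference was negative and called in 7 of the 17 alternatives, among them edgeR and DESeq2 on the recovered reads. All its exon bases lie opposite the non-coding SPNCRNA.1505, which is not among the genes of the table.

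The other enzyme gene, ssd2, encodes succinate-semialdehyde dehydrogenase, which makes succinate in the last step of the GABA shunt. It departed from the order seen above. Treated pgr1 libraries held 20814.3 and 22191.8 normalized counts, above the 11399.5 and 13137.0 of treated wild type. Untreated pgr1 libraries held 1272.0 and 1110.7, and untreated wild type held 44.6 and 81.1. Here treated pgr1 libraries were the highest group, and no groups overlapped. H2O2 changed the level 195-fold in wild type (log2 7.64, 5th of all genes) and 18.0-fold in the mutant (log2 4.18).

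The gene ssd2 rose in the mutant without H2O2, by 4.28 ± 0.22 (limma, Benjamini-Hochberg adjusted p = 1.12e-06). It was also the 1 gene of the 8 that was called higher in the mutant after H2O2, by 0.81 ± 0.22 (limma, Benjamini-Hochberg adjusted p = 0.015). This call after H2O2 was lost when replicate 1 of treated wild type, or either treated pgr1 library, was left out, and over the 17 alternatives the adjusted p ran from 3.99e-10 to 0.0846 and the difference from 0.71 to 0.91. Another succinate-semialdehyde dehydrogenase gene, ssd1, was at 1.28 ± 0.07 untreated and at 1.28 ± 0.07 after H2O2 (Benjamini-Hochberg adjusted p = 2.28e-06 and 2.82e-06, limma), and its log2 change with H2O2 was 0.43 in each strain. Exon bases of ssd2 lie opposite annotated non-coding genes over 94.2% of their length.

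The remaining 4 genes include 2 membrane proteins. The nuclear envelope protein gene ish1 had 45757.8 and 48429.1 normalized counts in treated pgr1 libraries and 47334.5 and 56055.2 in treated wild type. It had 4461.5 and 4666.6 in untreated pgr1 libraries and 716.1 and 844.2 in untreated wild type. The treated groups overlapped, while both untreated groups stood apart from each other and below them. The group means changed 66.3-fold with H2O2 in wild type (log2 6.05, 15th of all genes) and 10.3-fold in the mutant (log2 3.37).

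Untreated, ish1 was 2.55 ± 0.11 higher in the mutant (limma, Benjamini-Hochberg adjusted p = 2.71e-07). After H2O2 it differed by -0.13 ± 0.11, with an interval from -0.37 to 0.11 (limma, Benjamini-Hochberg adjusted p = 0.339). Quantile normalization moved this to -0.48 and made it a call. Over 24.4% of its length ish1 lies opposite SPBC365.11, the Golgi protein gene grp2. That gene went the other way, with 364.3 and 428.8 normalized counts in treated pgr1 libraries, 509.9 and 478.3 in treated wild type, 885.5 and 1007.6 in untreated pgr1 libraries and 1267.7 and 1373.8 in untreated wild type.

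The tail-anchored plasma membrane protein gene uvi15, named as a UV-induced transcript, had the smallest response of the 8. Its normalized counts were 7896.4 and 8381.4 in treated pgr1 libraries and 6736.3 and 7204.3 in treated wild type, and 2937.8 and 3415.1 in untreated pgr1 libraries and 1561.9 and 1680.1 in untreated wild type. All 4 groups were separate, with treated pgr1 libraries highest as for ssd2. The change with H2O2 was 4.30-fold in wild type (log2 2.10) and 2.56-fold in the mutant (log2 1.36). In wild type its log2 change ranked 239th of the 5028 genes, so the description extreme does not hold for uvi15, which stands among the 8 as a well-known stress gene.

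The untreated difference of uvi15 was also the smallest of the 8, at 0.97 ± 0.09 higher in the mutant (limma, Benjamini-Hochberg adjusted p = 4.01e-05). After H2O2 it was at 0.22 ± 0.09 with an interval from 0.03 to 0.42 (limma, Benjamini-Hochberg adjusted p = 0.0596). It passed in 4 of the 17 alternatives, among them the fit to the 4 treated libraries alone. No annotated gene lies opposite uvi15.

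The gene rds1, which RefSeq gives no function, kept a sizeable level without stress. It had 62600.7 and 61850.9 in treated pgr1 libraries and 62615.5 and 79989.1 in treated wild type, with 16230.6 and 16974.9 in untreated pgr1 libraries and 2282.4 and 2719.4 in untreated wild type. The treated groups were separated by the narrowest margin of the 6 genes whose treated groups did not overlap. The untreated mutant already held 23.3% of the treated wild-type level, and the change with H2O2 was 28.5-fold in wild type (log2 4.83, 41st of all genes) and 3.75-fold in the mutant (log2 1.91). Untreated, rds1 was 2.74 ± 0.13 higher in the mutant (limma, Benjamini-Hochberg adjusted p = 6.16e-07).

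After H2O2, rds1 differed by -0.19 ± 0.13, with an interval from -0.48 to 0.11 (limma, Benjamini-Hochberg adjusted p = 0.265). It was called lower after quantile normalization, at -0.43. Leaving out replicate 1 of treated wild type also made it a call. Of its exon bases 88.8% lie opposite the uncharacterized SPAC343.20. That gene had 520.7 and 446.6 normalized counts in treated pgr1 libraries, 538.8 and 401.4 in treated wild type, 375.8 and 312.7 in untreated pgr1 libraries and 492.9 and 454.9 in untreated wild type.

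SPAC3G6.07, an uncharacterized protein gene, had almost no reads in untreated wild type. Its normalized counts were 663.7 and 789.5 in treated pgr1 libraries and 773.5 and 814.4 in treated wild type. Untreated pgr1 libraries held 70.1 and 100.6. Untreated wild type held 1.75 and 1.82, which is 2 reads in each library. The treated groups overlapped and the untreated groups did not.

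From those 4 reads in all, SPAC3G6.07 was 444-fold higher after H2O2 in wild type, with a 95% counting interval from 173 to 1633. In untreated cells the mutant was 47.8-fold above wild type, with a counting interval from 18.4 to 177. These intervals cover counting error only. The limma difference for untreated cells was 4.93 ± 0.19 (Benjamini-Hochberg adjusted p = 2.02e-07), and over the alternatives it went up to 5.58 and, with a pseudocount of 10, down to what amounts to 7.99-fold. After H2O2 the difference was -0.13 ± 0.19, with an interval from -0.58 to 0.31 (limma, Benjamini-Hochberg adjusted p = 0.603), and no alternative called it. In the mutant the H2O2 change was 8.51-fold (log2 3.09).

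**Figure D2:**
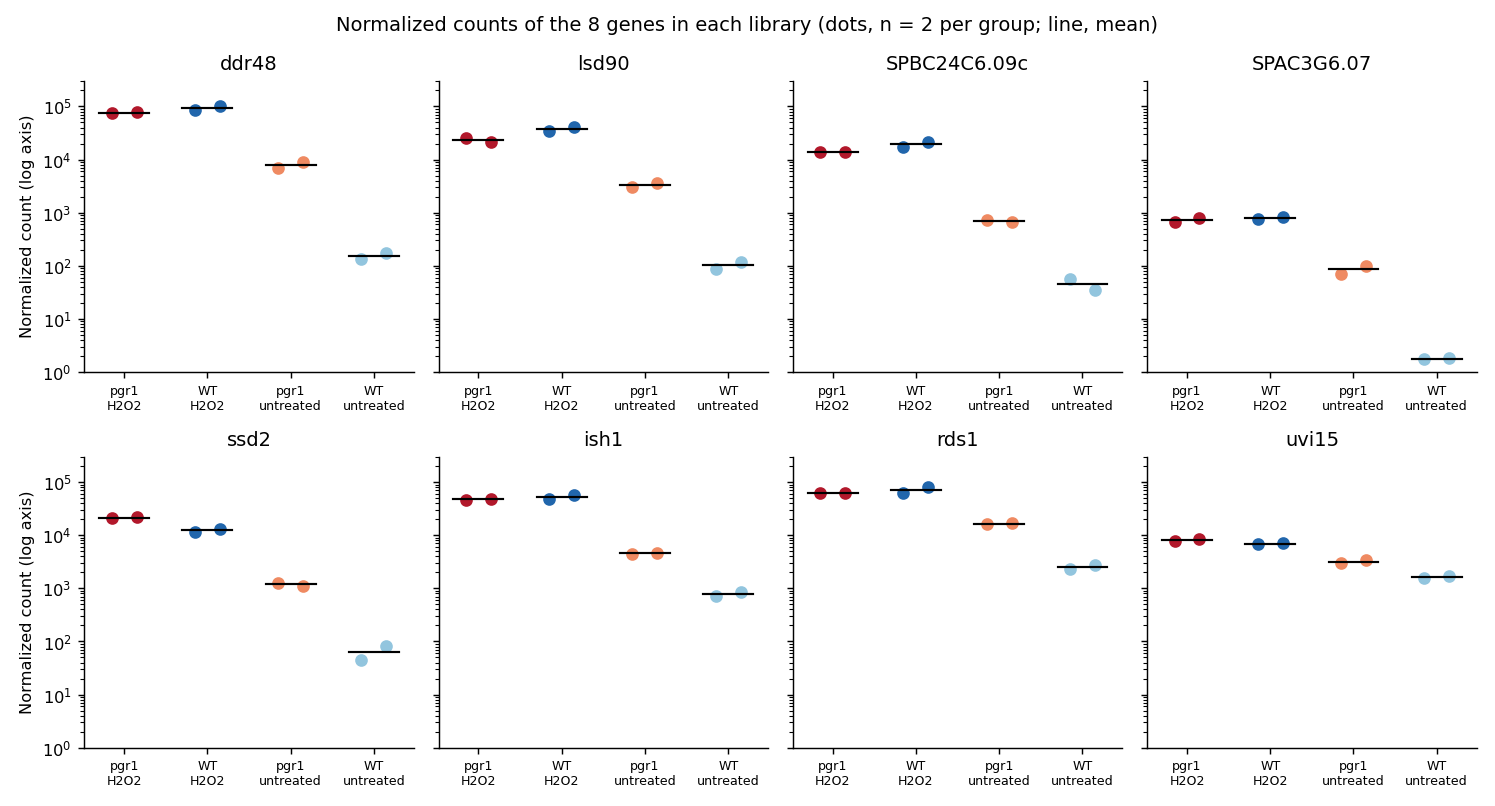
Normalized counts of each of the 8 genes on a log axis, with 1 dot per library, 2 libraries per group, and a line at the group mean, for treated pgr1, treated wild type, untreated pgr1 and untreated wild type from left to right. In every panel untreated wild type is lowest and untreated pgr1 stands between it and the treated groups, from 1.75 normalized counts for SPAC3G6.07 in untreated wild type to 103327.8 for ddr48 in treated wild type.

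Across the 8 genes the strains lay further apart in untreated cells than after H2O2, a difference that was not tested. All 8 were called higher in the untreated mutant, where 22.8% of the 5028 genes tested were called higher, and their median difference was 4.11 on the log2 scale against 0.00 for all genes. The libraries of the untreated groups did not overlap for any of the 8, whereas 37.1% of all genes were separated in that direction. All 8 calls held in each of the 17 alternatives. After H2O2, 1 of the 8 was called higher, where 26.5% of all genes were, and 1 was called lower, where 22.4% of all genes were. Treated libraries of the strains did not overlap for 6 of the 8, against 76.7% of all genes in either direction. The median difference after H2O2 was -0.16, against 0.01 for all genes. Both comparisons use wild-type libraries that also entered the response by which the genes were picked, so neither is independent of that choice. Over all genes, 1145 were called higher and 792 lower in the untreated mutant, and quantile normalization turned this split to 980 higher and 1443 lower. In bulk RNA, more cells with a high level and more RNA in each cell cannot be told apart.

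**Figure D3:**
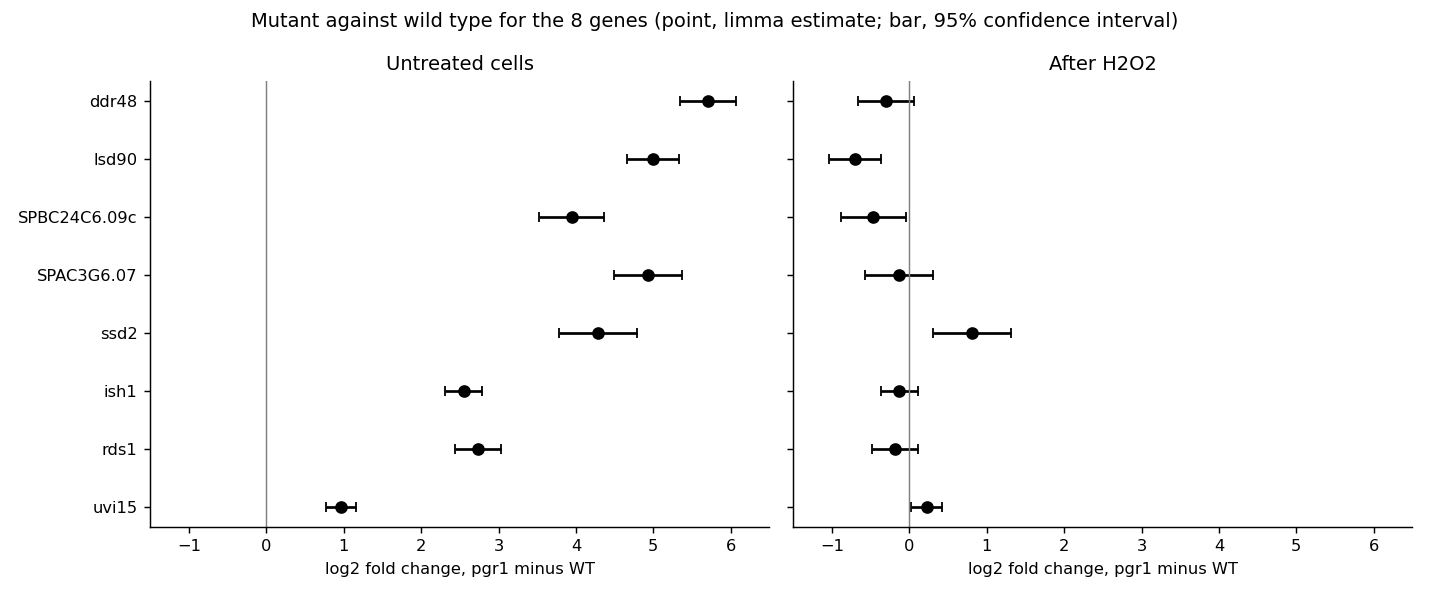
Difference between the pgr1 strain and wild type in log2 fold change for each gene, in untreated cells on the left and after H2O2 on the right, with points for the limma estimate and bars for its 95% confidence interval (2 libraries per group). Untreated estimates run from 0.97 for uvi15 to 5.71 for ddr48, and estimates after H2O2 run from -0.70 for lsd90 to 0.81 for ssd2.

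The H2O2 responses, by which the genes were chosen, are given without a test. Treated and untreated libraries did not overlap for any of the 8 genes in either strain, a separation that 42.7% of all tested genes showed upward in wild type and 44.2% in the mutant. The median response was 3.18 in the mutant and 7.90 in wild type on the log2 scale, against 0.01 and 0.00 for all genes. For each of the 8 genes the mutant's response was the smaller. Over all genes the median difference of the responses, mutant minus wild type, was -0.01, with 15.3% called negative and 12.0% positive. The choice of genes by large responses can itself favour such a count, so it is not independent of the choice. The difference of the responses ran from -6.01 ± 0.22 for ddr48, -5.69 ± 0.21 for lsd90 and -5.06 ± 0.28 for SPAC3G6.07, through -4.41 ± 0.26 for SPBC24C6.09c and -3.47 ± 0.31 for ssd2, to -2.92 ± 0.18 for rds1, -2.68 ± 0.15 for ish1 and -0.74 ± 0.12 for uvi15.

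**Figure D4:**
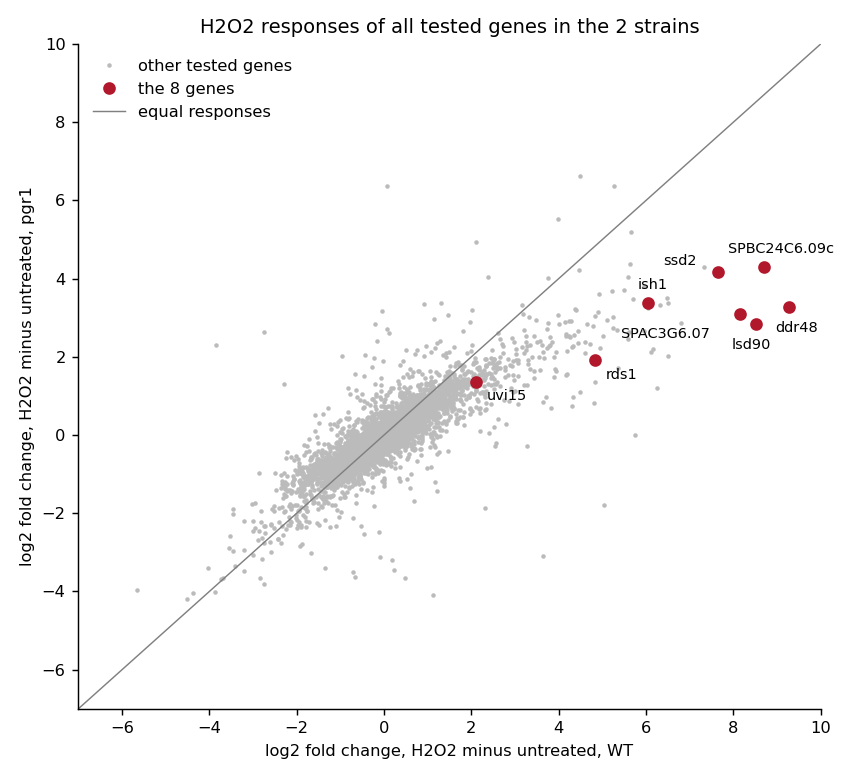
Log2 fold change with H2O2 in wild type (horizontal axis) and in the pgr1 strain (vertical axis) for the 5028 genes tested, with 1 dot per gene, the 8 genes in red and a line of equal responses. All 8 lie below the line, at 2.10 to 9.28 in wild type and 1.36 to 4.29 in the mutant. They were chosen by their H2O2 response, which can favour that side of the line.

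Together the 8 genes took up a larger share of the sequenced transcripts in every treated library than in any untreated one. Their summed share of a library was 1.68% (Wilson 95% interval 1.67 to 1.69%) and 1.71% (1.71 to 1.72%) in treated pgr1 libraries and 1.92% (1.91 to 1.93%) and 2.27% (2.26 to 2.28%) in treated wild type. It was 0.296% (0.293 to 0.299%) and 0.333% (0.33 to 0.336%) in untreated pgr1 libraries and 0.0445% (0.0434 to 0.0457%) and 0.0509% (0.0496 to 0.0522%) in untreated wild type. The Wilson intervals cover counting error only, and the 2 libraries of each group lay outside each other's intervals. The 4 groups did not overlap. Group means were 1.70 ± 0.0254% in treated pgr1, 2.09 ± 0.250% in treated wild type, 0.315 ± 0.0264% in untreated pgr1 and 0.0477 ± 0.00451% in untreated wild type (SD, n = 2 each). With 2 libraries a group an exact two-sided permutation test cannot go below 0.333, so the share was not tested. The genes were chosen by their H2O2 response in these same libraries, so a larger share after treatment follows from that choice.

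Single genes contributed unequally. The share of ddr48 was 0.509% in treated pgr1 libraries, 0.669% in treated wild type, 0.0665% in untreated pgr1 libraries and 0.00137% in untreated wild type, as group means. For rds1 the means were 0.417%, 0.506%, 0.139% and 0.0226% in the same order of groups, and for ish1 they were 0.316%, 0.367%, 0.0382% and 0.00707%. The share of lsd90 was 0.158% in treated pgr1 libraries, 0.272% in treated wild type, 0.0277% in untreated pgr1 libraries and 0.000937% in untreated wild type. In the same order, ssd2 had 0.144%, 0.0872%, 0.00998% and 0.000569%, and SPBC24C6.09c had 0.0931%, 0.137%, 0.00593% and 0.000419%. The shares of uvi15 were 0.0546%, 0.0496%, 0.0266% and 0.0147%, and SPAC3G6.07 was lowest in each group, at 0.00487%, 0.00564%, 0.000716% and 1.62e-05%.

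The composition of the sum changed with treatment. The largest part of it came from ddr48 in all 4 treated libraries, with 30.0% of the sum in treated pgr1 libraries and 32.0% in treated wild type, and from rds1 in all 4 untreated libraries, with 44.3% in untreated pgr1 libraries and 47.4% in untreated wild type. The weakly induced uvi15 made up 3.21% of the sum in treated pgr1 libraries, 2.38% in treated wild type, 8.45% in untreated pgr1 libraries and 30.9% in untreated wild type.

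**Figure D5:**
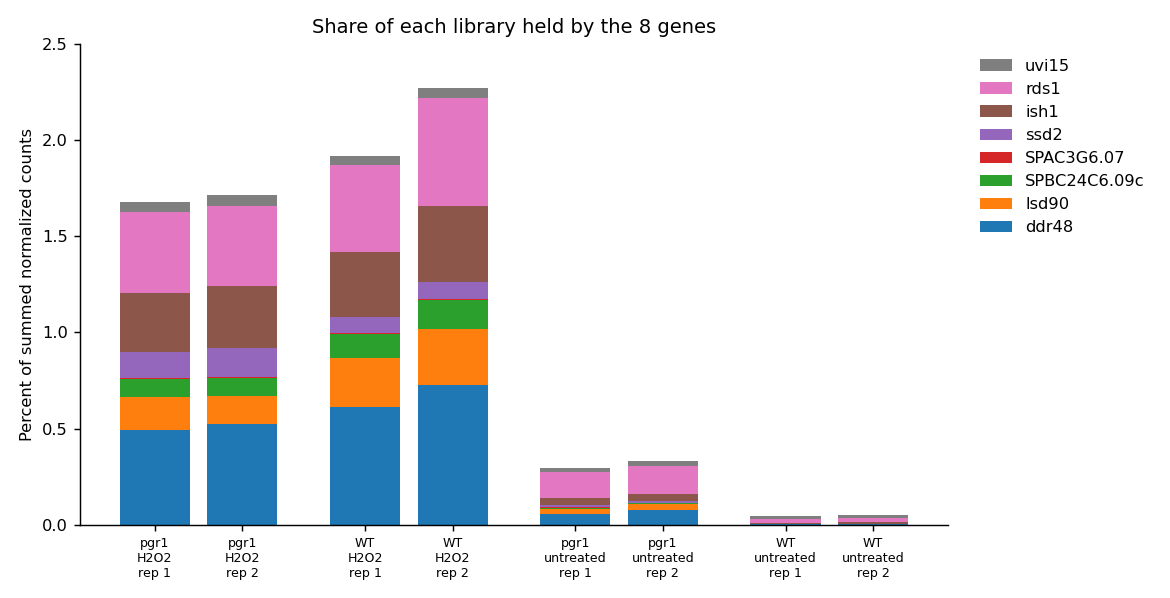
Percent of the summed normalized counts of each library held by the 8 genes, with 1 stacked bar per library, 2 libraries per group, and colours for the genes. Bars reach 1.68% and 1.71% in treated pgr1 libraries and 1.92% and 2.27% in treated wild type, against 0.296% and 0.333% in untreated pgr1 libraries and 0.0445% and 0.0509% in untreated wild type.

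Levels of different genes can be compared per kilobase of annotated transcript. In treated wild type the order of mean levels per kilobase was ddr48 at 72324, rds1 at 36983, ish1 at 19967, lsd90 at 16864, uvi15 at 16557, SPBC24C6.09c at 7510, ssd2 at 6128 and SPAC3G6.07 at 1178 normalized counts per kilobase. Of these neighbours, lsd90 and uvi15 overlapped and the others did not. In treated pgr1 libraries uvi15 at 19332 stood above ish1 at 18190, and ssd2 at 10741 overlapped with lsd90 at 10381. In untreated wild type the order was led by uvi15 at 3850 and rds1 at 1297, followed by ish1 at 301 and ddr48 at 116, and the rest were at 45.6 or below. Untreated pgr1 libraries were led by rds1 at 8611, uvi15 at 7545 and ddr48 at 6089. The annotated lengths of lsd90, SPBC24C6.09c and uvi15 lack part of the untranslated regions, so their values rest on a shorter annotated length than those of the others.

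Genes outside the 8 with the largest wild-type responses are given for scale, with no test. They rank above ish1, rds1 and uvi15, which were 15th, 41st and 239th. The 6th to 13th largest log2 changes with H2O2 in wild type belonged to genes that are not among the 8. They included the NAD-binding dehydrogenase family gene SPACUNK4.17 at 7.32, the glucosidase gene SPAC4H3.03c at 6.80, wwm3 at 6.51, the SBDS family gene rtc3 at 6.48 and SPAC513.02, of the phosphoglycerate mutase family, at 6.33. The cytochrome-type lactate dehydrogenase gene SPAPB1A11.03 followed at 6.24 and SPAC637.03 at 6.17. Of this range, SPBC3E7.17 was listed at 0 in untreated wild type, so it has no fold change here. It averaged 93.4 normalized counts in treated pgr1 libraries, 91.3 in treated wild type and 22.2 in untreated pgr1 libraries. In the mutant the responses of SPACUNK4.17 and SPAC4H3.03c were 4.29 and 2.87, and that of SPAPB1A11.03 was 1.21.

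Genes with the profile most like the mean of the 8 were sought by Pearson's r of the standardized log2 values over the 8 libraries, as a description. They were the trehalose-phosphate synthase gene tps1 (r = 0.999), its homologue tps3 (r = 0.999), the uncharacterized SPBC30B4.09 (r = 0.998), the trehalase gene ntp1 (r = 0.998), the RNA-binding protein gene puf4 (r = 0.997) and the F-box protein gene pof14 (r = 0.997). The libraries fall into treated and untreated sets, and r was taken across both. Likeness is of shape and not of size: puf4 changed by 0.83 with H2O2 in wild type and SPBC30B4.09 by 5.58. Nearest to a single gene were SPAC637.03 to ddr48 (r = 0.999), gpd1 to lsd90 (r = 0.998) and to rds1 (r = 0.999), rtc3 to SPBC24C6.09c (r = 0.998) and SPBC12C2.04 to SPAC3G6.07 (r = 0.998). For ssd2 it was wwm2 (r = 0.999), for ish1 the trehalose-phosphate synthase family gene SPAC22F8.05 (r = 0.999) and for uvi15 the transcription factor gene rsv2 (r = 0.998).

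Other genes of the core stress response, 15 in number and listed with results of these libraries known, showed the untreated difference in most cases. In untreated cells 14 of 15 were called higher in the mutant and none lower, with a median log2 difference of 1.57, where 22.8% of all genes were called higher. The largest were the metallothionein gene zym1 at 5.47 ± 0.18 and the calcium pump gene cta3 at 5.23 ± 0.61, followed by the heat shock protein gene hsp9 at 2.52 ± 0.16 and ntp1 at 2.04 ± 0.06 (limma, Benjamini-Hochberg adjusted p = 1.03e-07, 0.000208, 4.64e-06 and 7.34e-08). The exception was the kinase gene cmk2, at 0.14 ± 0.15. After H2O2, 5 of the 15 were called higher in the mutant, where 26.5% of all genes were, and 1 lower, where 22.4% were, with a median of 0.06. Highest was the catalase gene ctt1 at 1.56 ± 0.15, and the glutathione S-transferase gene gst3 was lower at -0.44 ± 0.08 (limma, Benjamini-Hochberg adjusted p = 5.98e-05 and 0.00242).

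With H2O2, 13 of the 15 rose in wild type, where 37.7% of all genes were called higher, with a median of 3.89. In the mutant 13 rose and 1 fell, with a median of 1.64, where 35.7% of all genes were called higher. The gene that fell in the mutant was cta3, at -4.09 ± 0.61 (limma, Benjamini-Hochberg adjusted p = 0.000306), with means of 96.6 normalized counts in treated pgr1 libraries and 1667.6 in untreated pgr1 libraries. The difference of the responses, mutant minus wild type, was called negative for 12 of the 15 and positive for 1, ctt1. Over all genes, 15.3% were called negative and 12.0% positive. The 12 include cta3, which fell in the mutant and so did not show a smaller rise there. The 15 genes, like those of the lists that follow, were chosen with results of these libraries known.

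Regulators of these genes formed a list of 7. Of them, 3 were called higher in the untreated mutant, where 22.8% of all genes were, and none lower, with a median difference of 0.15. They were pap1 at 0.98 ± 0.07, hsf1, the heat shock factor, at 0.58 ± 0.06 and csx1, an RNA-binding protein gene, at 0.63 ± 0.16 (limma, Benjamini-Hochberg adjusted p = 8.11e-06, 9.84e-05 and 0.0117). The kinase gene sty1 was at -0.16 ± 0.09 and pcr1 at 0.15 ± 0.08, and neither passed. After H2O2, 4 of the 7 were called higher in the mutant, where 26.5% of all genes were, and pcr1 was called lower, where 22.4% were, at -0.72 ± 0.08 (limma, Benjamini-Hochberg adjusted p = 0.000152). The gene atf1, counted among the core stress genes, was at 0.83 ± 0.07 untreated (Benjamini-Hochberg adjusted p = 2.95e-05, limma) and at 0.06 ± 0.07 after H2O2.

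Enzymes next to the phosphoketolase and ssd2 in the pentose phosphate pathway and the GABA shunt were compared as a list of 8. In untreated cells 5 were called higher in the mutant, where 22.8% of all genes were, and 1 lower, where 15.8% were, with a median of 0.51. After H2O2 the counts were again 5 and 1, where 26.5% of all genes were called higher and 22.4% lower, with a median of 0.77. The glucose-6-phosphate dehydrogenase gene zwf1 was at 1.68 ± 0.10 untreated and 1.01 ± 0.10 after H2O2 (Benjamini-Hochberg adjusted p = 2.22e-06 and 5.81e-05, limma). The ribose-5-phosphate isomerase gene rki1 was lower, at -0.41 ± 0.07 untreated and -0.49 ± 0.07 after H2O2 (Benjamini-Hochberg adjusted p = 0.00144 and 0.000428, limma). The GABA transaminase gene uga1, which acts before ssd2 in the shunt, was at 0.08 ± 0.16 untreated and 1.59 ± 0.16 after H2O2 (Benjamini-Hochberg adjusted p = 0.729 and 8.58e-05, limma).

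Markers of sexual development, the other cell state that nutrient stress brings about, mostly fell with H2O2. Of 8 such markers 6 could be tested, and mfm1 and mfm3 could not because too few libraries reached 10 normalized counts. With H2O2, 5 of the 6 fell and 1 rose in each strain, with a median of -1.81 in the mutant and -2.27 in wild type. Of all genes, 32.5% in the mutant and 34.6% in wild type were called lower, and 35.7% and 37.7% higher. The marker that rose was fus1, at 0.73 ± 0.23 in the mutant and 1.58 ± 0.23 in wild type (limma, Benjamini-Hochberg adjusted p = 0.0192 and 0.00021). After H2O2, 3 of the 6 were called higher in the mutant than in wild type, where 26.5% of all genes were, and 1 lower, where 22.4% were. In untreated cells 2 of the 6 were called higher in the mutant, where 22.8% of all genes were, mei2 at 0.98 ± 0.19 and spk1 at 1.05 ± 0.16 (limma, Benjamini-Hochberg adjusted p = 0.00339 and 0.00101). The regulator gene ste11 averaged 60.3 normalized counts in treated pgr1 libraries, 27.2 in treated wild type, 209.6 in untreated pgr1 libraries and 220.1 in untreated wild type. The part of this cell state in the differences of the 8 genes was not tested.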

How the data were processed

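The authors deposited DESeq2-normalized counts, a signal in which the read count of each of 5165 genes is divided by a size factor of its library, per the table's name and the submitters' processing notes. Those notes name FastQC, Trimmomatic, Salmon and DESeq2 and the build ASM294v2. Of their versions and settings, strand included, nothing is given in the sources used here. Libraries were made with a stranded mRNA kit, per the labels' protocols. A single line (1 in all) that names no gene was left out. Dividing by what 1 read is worth gave whole reads, within 0.05 reads, for 99.98% to 100.0% of genes.

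From these values log2(value + 1) was computed. Genes at 10 or more in at least 2 libraries were tested (5028, 137 left out). The model was limma 3.58.1 (R 4.3.3, eBayes with trend) on all 8 libraries, with a mean for each group and 4 residual degrees of freedom. Tests were two-sided, adjusted by the Benjamini-Hochberg method over all genes tested, and called at an adjusted p below 0.05. edgeR 4.0.16 and DESeq2 1.42.0 on the recovered reads, other scalings, filters and pseudocounts, a replicate block and each library left out in turn made 17 alternatives. Shares have Wilson intervals at 95%, which cover counting error only. Gene identifiers were matched to a RefSeq annotation of assembly ASM294v3 (5131 matched, 34 not), a build other than the authors', and coordinates are therefore not printed. None of the stretches of 31 bases in the 8 genes occurred on the same strand of another gene.

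The 8 genes and the 4 lists (38 entries, all matched) were chosen with earlier results of these data known. Named genes were the 8, the listed genes, the 6 others most like their mean profile, the 1 other most like each, and the 8 others with the largest wild-type response, the last 3 groups at a group mean of at least 20. Replicates of a group differed by more than read sampling, at a chi-square per degree of freedom of 7.81 to 24.0.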

Additional observations from a re-analysis of the deposited data

Results flagged for a closer look

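Several listed genes responded to H2O2 to a different extent in the 2 strains, by limma's test of the difference of the responses (mutant minus wild type, log2, Benjamini-Hochberg adjusted over all genes tested). The most negative difference among the core stress genes was that of cta3 (-5.21). Its log2 change with H2O2 was -4.09 in the mutant and 1.12 in wild type, the latter not called. Among the core stress genes the response was smaller in the mutant for zym1 (-3.99), hsp9 (-2.30), tms1 (-1.90), gpd1 (-1.85) and ntp1 (-1.81). The response was also smaller for tps1 (-1.65), gpx1 (-1.59), gst3 (-1.25), pyp2 (-1.25), atf1 (-0.77) and tpp1 (-0.39). It was larger in the mutant for ctt1 (1.11), which averaged 108054 normalized counts in treated pgr1 libraries, 36680.5 in treated wild type, 1325.6 in untreated pgr1 libraries and 951.2 in untreated wild type. For cta3 the means were 96.6 normalized counts in treated pgr1 libraries, 126.7 in treated wild type, 1667.6 in untreated pgr1 libraries and 45.9 in untreated wild type.

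Among the regulators, responses were smaller in the mutant for pcr1 (-0.87), hsf1 (-0.37) and pap1 (-0.35) and larger for sty1 (0.63). Of the pentose phosphate and GABA shunt genes, the response of zwf1 was smaller (-0.67) and that of tal1 larger (0.43) in the mutant. For uga1 the difference was 1.51, with a log2 change of -1.23 in wild type and 0.28 in the mutant, the latter not called. The uga1 transcript averaged 175.8 normalized counts in treated pgr1 libraries, 58.1 in treated wild type, 144.6 in untreated pgr1 libraries and 136.8 in untreated wild type. The sexual development regulator ste11 differed by 1.25. The same differences of the 8 peroxide-induced genes were not tested, because the genes were chosen by their response.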

How the results depend on the processing

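All 8 genes stayed higher in the untreated mutant in each of the 17 alternatives. After H2O2 the called genes lsd90 and ssd2 kept their direction. Quantile normalization turned the balance of calls over all genes after H2O2 from more higher to more lower, with 1064 higher and 1238 lower, as it did untreated, and for the difference of the responses to 651 higher and 632 lower. After H2O2 the counts were unstable: 2 of the 8 genes were called higher with the replicate block and with the fit to the 4 treated libraries alone, and 0 to 2 when a library was left out. The count called lower was 2 with a pseudocount of 10, with the 4 libraries alone, with edgeR and with DESeq2, 3 with the replicate block, 4 with quantile normalization, and 1 to 2 when a library was left out. The labels do not say that replicate numbers mark a shared culture or batch. Differences between replicates 2 and 1 correlated across genes at 0.339 (wild type, treated with untreated), 0.162 (mutant, likewise), 0.367 (untreated, mutant with wild type), -0.0171 (treated, likewise), -0.143 (untreated mutant with treated wild type) and -0.00801 (treated mutant with untreated wild type). Not every pair exceeded 0.1, so whether the numbers pair the libraries is not settled and the fit without the block was kept. Over all genes, those lower in the untreated mutant numbered 792, or 1443 with quantile normalization and 470 to 853 with a library left out. Genes higher after H2O2 in the mutant ranged from 873 to 1336 with a library left out. Genes called positive for the difference of the responses, mutant minus wild type, ranged from 315 to 604 with a library left out. Those called negative ranged from 461 to 796. A positive difference can also be a smaller fall in the mutant, and a negative one a larger fall. The median response of the 8 genes in wild type was 6.77 with a pseudocount of 10, 7.31 with quantile normalization and 7.68 to 8.12 with a library left out. In the mutant it was 2.74 with quantile normalization and 2.96 to 3.37 with a library left out. The median difference of the responses was -3.20 with a pseudocount of 10 and -3.60 with quantile normalization. The share of treated pgr1 libraries was 1.73% of the other genes' sum. The pseudocount acts on genes with few reads, and the cause of the other shifts was not tested. With 2 libraries a group and 2 reads per library for SPAC3G6.07 in untreated wild type, the size of that gene's change is the least certain of the 8.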
